A study of Saccharomyces cerevisiae with 6 samples.

Results

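Nitrogen catabolite repression genes and amino acid permease genes were followed in budding yeast, Saccharomyces cerevisiae, with and without overexpression of ACC1. The genes were selected by their symbols alone. The selection took the general amino acid permease gene GAP1, the urea transporter gene DUR3 and the regulator genes GAT1, GLN3, GZF3 and URE2. It also took the numbered MEP, DAL, PUT, UGA, CAR, AVT, AGP, BAP, TAT, GNP and MUP genes and the amino acid permease and sensor genes CAN1, DIP5, ALP1, LYP1, HIP1, SSY1 and MMP1. This found 28 of the 979 yeast genes on the array. By known role they comprised 18 repression-sensitive genes (8 permeases and 10 enzymes), 6 regulators, 1 permease induced by external amino acids, 2 other plasma membrane permeases and 1 vacuolar transporter.

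RNA came from a wild type strain (3 samples) and from the same wild type overexpressing ACC1 (3 samples), and each sample was hybridized to 1 single-colour oligonucleotide array. ACC1 encodes acetyl-CoA carboxylase, which makes the malonyl-CoA used for fatty acid synthesis. The strain background, the construct that overexpressed ACC1, the number of clones, the medium and its nitrogen source are not stated in the sources used here. Nothing in the labels says that the replicates were grown separately, so a p-value here reflects the spread among 3 samples, and that spread may be technical. In such bulk samples fewer cells of a type and less RNA per cell cannot be told apart.

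Yeast takes up and degrades poor nitrogen sources such as proline, allantoin, urea and GABA only when better ones such as glutamine are scarce. In good nitrogen, Ure2 holds the GATA factor Gln3 in the cytoplasm, and in poor nitrogen Gln3 and Gat1 activate the catabolic and permease genes, while the GATA factors Dal80 and Gzf3 repress them. A separate system, the plasma membrane sensor Ssy1 with its partners Ptr3 and Ssy5, detects amino acids outside the cell and induces another set of permease genes, among them AGP1, BAP2, TAT1, GNP1 and DIP5.

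The probes of 7 genes are shown because the comparison turned on them: the 3 genes that rose (GAP1, UGA4 and MEP2), the other ammonium permease genes (MEP1 and MEP3), the repression-sensitive gene with the lowest difference (UGA2) and the measured permease gene of the amino acid sensor system (DIP5). Each is given in lower case, 5′ to 3′, as the files list it.
GAP1: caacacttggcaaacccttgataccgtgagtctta
UGA4: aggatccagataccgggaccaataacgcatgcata
MEP1: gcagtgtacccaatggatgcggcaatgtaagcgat
MEP2: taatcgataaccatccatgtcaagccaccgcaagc
MEP3: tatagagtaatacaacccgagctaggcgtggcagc
UGA2: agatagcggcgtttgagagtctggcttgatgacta
DIP5: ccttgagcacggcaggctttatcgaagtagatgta

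Per the probe names, the GAP1 probe covers positions 1098 to 1132 of the coding sequence of YKR039W, and the UGA4 probe positions 1549 to 1583 of YDL210W. The ammonium permease probes lie at positions 1120 to 1154 of YGR121C (MEP1), 805 to 839 of YNL142W (MEP2) and 847 to 881 of YPR138C (MEP3). The UGA2 probe lies at 551 to 585 of YBR006W and the DIP5 probe at 1420 to 1454 of YPL265W. The 3 ammonium permease proteins are related, but their probes shared no run longer than 4 bases with each other. Over the 28 genes, the longest run in common with another of the array's probes was 9 to 12 bases. Each gene had 1 probe of 33 to 35 bases, printed in 2 or 3 spots per array. The search covered probes and not transcripts, so what else a probe may bind was not tested.

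The wild type arrays were brighter, with a median yeast spot of 4120 ± 440 intensity units against 1900 ± 114 on the overexpression arrays (SD, n = 3 each). Quantile normalization removed this difference, and the values below are normalized log2 intensities. The labels were checked with ACC1, whose signal was 1.17 to 1.36 times the array's median spot in wild type and 5.96 to 7.30 times in overexpression. The 95th percentile of 26 control probes served as each array's background threshold. Of the 28 genes, 11 exceeded it on all 6 arrays, 24 on at least 1 array of each group, and DAL7 and DAL81 on none. Any background still in a signal shrinks its fold. The small number of arrays limits the precision. No array was shared by the groups, so group and hybridization cannot be told apart.

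The limma fit called 3 of the 28 genes at 0.05 after Benjamini-Hochberg adjustment across the 979 genes, all higher in ACC1 overexpression. Over all genes, 3.47% passed, 2.66% as higher and 0.817% as lower. The 3 were GAP1, UGA4 and MEP2, which all encode repression-sensitive permeases. No repression-sensitive enzyme, regulator or other permease among the 28 passed. The urea-degrading enzyme gene DUR12, which the selection by symbol left out, did pass as higher and is described below. At an unadjusted p of 0.05, 8 of the 28 passed, where 20.1% of all genes did. The further 5 were the permeases MEP1 and MEP3, the enzymes UGA2 and DAL7 (the latter above the control probes on no array) and the regulator DAL80.

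**Figure D1:**
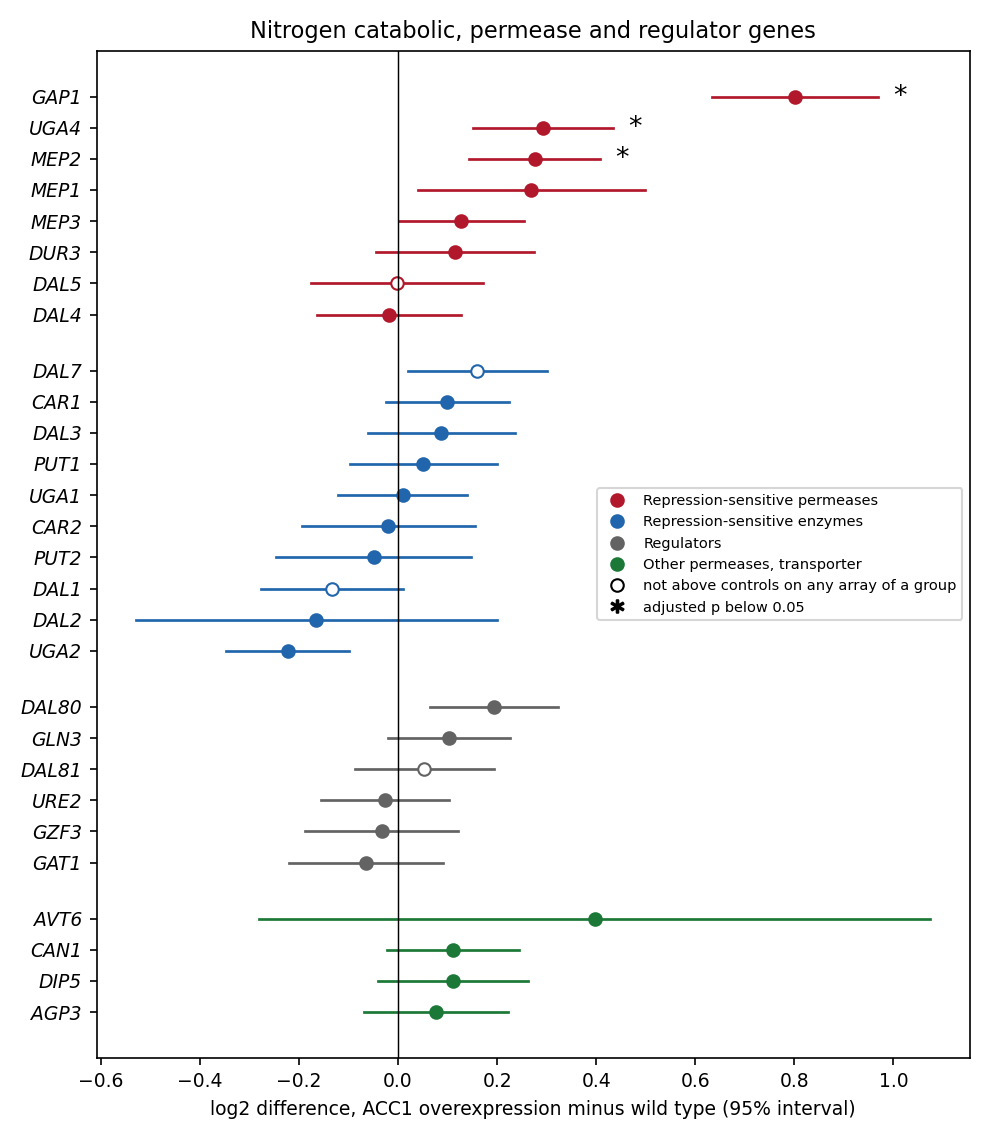
Log2 difference (ACC1 overexpression minus wild type, points) with its 95% interval (lines) for the 28 genes, ordered within 4 role groups, from 3 arrays per group. GAP1 stands apart at 0.80, UGA4 and MEP2 follow at 0.29 and 0.28, and the enzymes spread around 0 down to UGA2 at −0.22; open points mark genes above the control probes on no array of a group.

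GAP1 encodes the general amino acid permease, which takes up most amino acids when nitrogen is poor. Its normalized log2 intensity was 11.58, 11.69 and 11.75 on wild type arrays 1, 2 and 3, and 12.38, 12.47 and 12.59 on overexpression arrays 1, 2 and 3. All 3 overexpression values lay above all wild type values. The log2 difference was 0.80 with a standard error of 0.07, a 1.74-fold higher signal (95% interval 1.55 to 1.96, limma adjusted p = 0.000972). ACC1 and ERG11, a sterol synthesis gene named here after its value was seen, were the 2 genes on the array with a larger difference. Before normalization the GAP1 signal was 1.10, 1.18 and 1.26 times the array's median spot in wild type and 1.85, 1.94 and 2.21 times in overexpression. The 2 spots of the probe gave differences of 0.76 and 0.84. The replicate number also marks 1 of 3 positions in the printed layout, each used by 1 wild type array and 1 overexpression array. Those 2 arrays were separate hybridizations, so a difference within a position also holds any difference between hybridizations. GAP1 was higher by 0.79, 0.77 and 0.84 within the 3 positions. After a normexp background correction with an offset of 50 the difference was 1.21 (adjusted p = 0.0014).

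UGA4 encodes the permease for GABA, a nitrogen source that UGA1 (GABA transaminase) and UGA2 (succinate semialdehyde dehydrogenase) degrade. UGA4 stood at 10.99, 11.15 and 11.08 in wild type and at 11.31, 11.40 and 11.38 in overexpression, so the groups did not overlap. It rose by 0.29 on the log2 scale (standard error 0.06, adjusted p = 0.0413), and by 0.32, 0.25 and 0.31 within the array positions. Before normalization UGA4 read 0.710 to 0.780 times the array's median spot in wild type and 0.919 to 0.974 times in overexpression. This ratio also rose for DAL7 and DAL81, which were above the control probes on no array. DAL7 read 0.476 to 0.511 in wild type and 0.590 to 0.648 in overexpression, and DAL81 0.508 to 0.560 and 0.610 to 0.664. The ratio alone therefore does not show a rise for a dim gene. UGA4 was above the control probes on 2 of the 3 wild type arrays. After normexp with an offset of 50 its difference was 0.76 (adjusted p = 0.0247). The call was lost without wild type replicate 1 (adjusted p = 0.0727) or 2 (0.127) and without overexpression replicate 1, 2 or 3 (0.103, 0.148 and 0.149).

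Neither enzyme gene of the same pathway passed. UGA2 stood at 11.06, 10.99 and 10.97 in wild type and at 10.80, 10.81 and 10.74 in overexpression. Its overexpression values lay below all wild type values, yet its difference of −0.22 (standard error 0.05) did not pass (adjusted p = 0.0657). UGA2 was above the control probes on 2 wild type arrays and 1 overexpression array. Before normalization the groups were barely apart, at 0.689 to 0.744 (wild type) and 0.644 to 0.686 (overexpression) times the array's median spot. That ratio rose in overexpression for the dim genes DAL7 and DAL81, so it may understate a fall. The value depended on the processing. UGA2 passed after normexp with an offset of 50 (−0.82, adjusted p = 0.0116) and with the array position as a block (adjusted p = 0.0271). With arrays scaled to a common median, where 61.2% of all genes had a positive difference, UGA2 was at −0.09 (adjusted p = 0.331). UGA1 stood at 11.02 to 11.07 in wild type and 11.00 to 11.13 in overexpression, with a difference of 0.01 (95% interval −0.12 to 0.14).

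The MEP genes encode the ammonium permeases, and Mep2 also acts in the switch to filamentous growth. MEP2 stood at 11.89, 11.81 and 11.79 in wild type and at 12.08, 12.07 and 12.17 in overexpression, with no overlap. It rose by 0.28 (standard error 0.06, adjusted p = 0.0413), and its 2 spots gave 0.27 and 0.28. It was higher by 0.19, 0.27 and 0.38 within the array positions. The call of MEP2 was lost with cyclic loess (adjusted p = 0.0577), trended and robust variances (0.0610) and normexp at an offset of 50 (0.43, adjusted p = 0.0918). It was also lost without wild type replicate 2 (0.199) and without overexpression replicate 1, 2 or 3 (0.117, 0.148 and 0.149).

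MEP1 had nearly the size of difference of MEP2 but a wider spread. Its wild type values were 11.59, 11.61 and 11.98, and its overexpression values were 11.94, 12.00 and 12.05. Wild type array 3 lay within the overexpression range, while wild type arrays 1 and 2 lay below it. The difference of 0.27 (95% interval 0.04 to 0.50) did not pass (adjusted p = 0.184). It passed with the array position as a block (adjusted p = 0.0307), and leaving out wild type replicate 3 gave 0.39 (adjusted p = 0.0061). MEP3 stood at 11.57, 11.63 and 11.68 in wild type and at 11.76, 11.72 and 11.78 in overexpression, a difference of 0.13 (adjusted p = 0.244). The MEP1, MEP2 and MEP3 differences were positive within each of the 3 array positions, where 22.4% of all genes were. They were also positive under all 18 settings of the fit that were run, which reuse the same arrays.

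**Figure D2:**
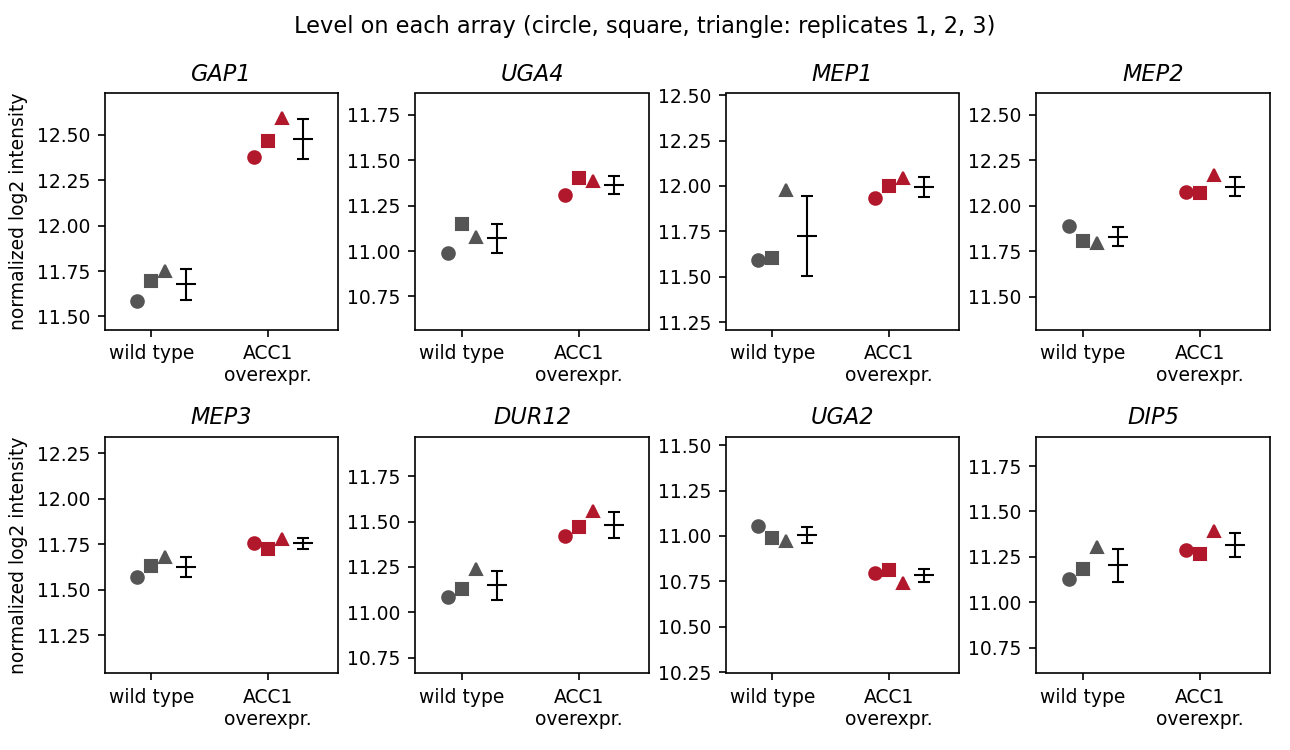
Normalized log2 intensity on each array for 8 genes, with wild type in grey and ACC1 overexpression in red; the bars give mean ± SD (n = 3), and each panel spans the same log2 range around its own centre. GAP1, UGA4, MEP2, MEP3 and DUR12 show higher overexpression values without overlap, UGA2 lower ones, and MEP1 and DIP5 overlap.

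The 3 remaining repression-sensitive permease genes serve allantoin and urea use. DUR3, the urea transporter gene, stood at 10.92 to 10.93 in wild type and at 10.94, 11.00 and 11.18 in overexpression. Its difference of 0.12 did not pass (adjusted p = 0.399), and overexpression array 3 was the highest. DAL4, the allantoin permease gene, differed by −0.02 (95% interval −0.16 to 0.13). DAL5, the allantoate permease gene, was above the control probes on no wild type array and on 1 overexpression array, so no fold is given for it. Over the 8 permease genes, with DAL5 at its measured value, the median log2 difference was 0.20, against −0.01 over all 979 genes. Of the 8 differences, 6 were positive, where 46.4% of all genes had a positive difference. The medians within array positions 1, 2 and 3 were 0.19, 0.17 and 0.18.

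The allantoin enzymes showed no common direction. DAL1, DAL4, DAL2, DCG1, DAL7 and DAL3 are consecutive protein-coding genes in the R64 gene table, a cluster for allantoin breakdown. DAL2, the allantoicase gene, had wild type values of 13.21, 12.81 and 12.55 and overexpression values of 12.89, 12.70 and 12.47, which overlapped (difference −0.16, 95% interval −0.53 to 0.20). On wild type array 1 its 2 spots read 8009 and 17105 intensity units, and the 2 spots gave differences of 0.07 and −0.40. DAL3, the ureidoglycolate lyase gene, differed by 0.09 (adjusted p = 0.503). DAL1, the allantoinase gene, was above the control probes on 1 wild type array and on no overexpression array. No fold is therefore given for DAL1, which did not pass (adjusted p = 0.285), and DAL1 was not stable in direction. With arrays scaled to a common median, where 61.2% of all genes had a positive difference, it was 0.014 higher in overexpression (adjusted p = 0.904). After normexp with the block it was −0.53 (adjusted p = 0.0221). DAL7, a malate synthase gene, stood at 10.47 to 10.60 in wild type and 10.61 to 10.74 in overexpression, below the control threshold on all 6 arrays, so no fold is given. DCG1, of unknown function, was above the controls on 1 wild type array alone, so no difference is given.

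Enzymes for proline and arginine use did not pass either. PUT1, the proline oxidase gene, differed by 0.05 (95% interval −0.10 to 0.20), and PUT2, whose product completes proline breakdown to glutamate, by −0.05 (−0.25 to 0.15). CAR1, the arginase gene, differed by 0.10 (−0.02 to 0.22) with no overlap of the groups, and CAR2, the ornithine transaminase gene, by −0.02 (−0.19 to 0.16). Among the 8 enzymes above the control probes in both groups, 4 differences were positive and 4 negative, from −0.22 to 0.10. The median over all 10, with DAL1 and DAL7 at their measured values, was −0.01, as over all genes. With arrays scaled to a common median, the enzyme median was 0.08, where the median of all genes was 0.05.

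**Figure D3:**
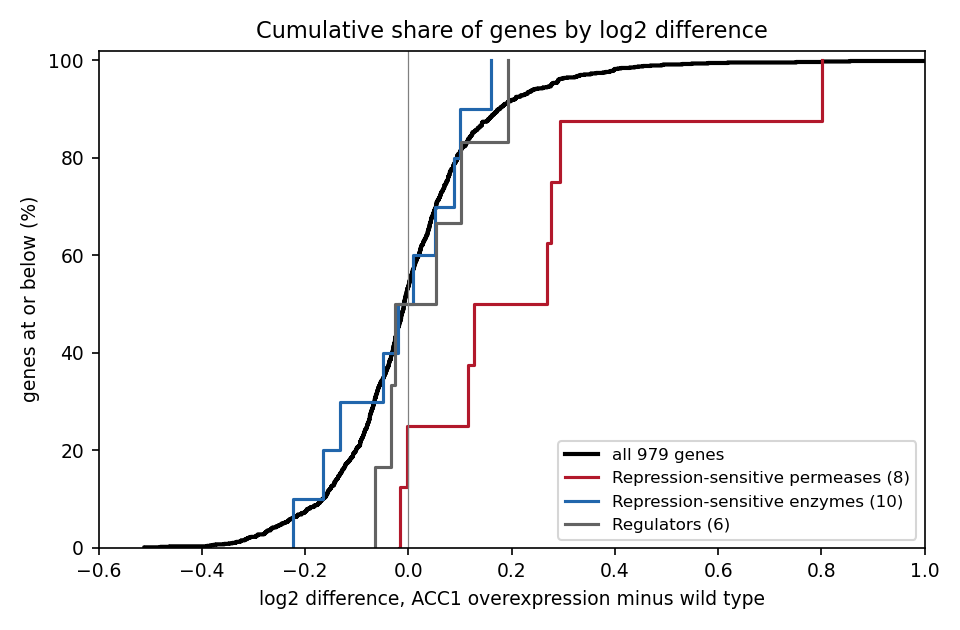
Cumulative share of genes (%) by log2 difference for all 979 genes, the 8 repression-sensitive permeases, the 10 repression-sensitive enzymes and the 6 regulators; ACC1 lies beyond the right edge. The permease curve lies to the right of the curve of all genes, and the enzyme curve runs close to it.

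The regulators of the system did not pass. DAL80, which encodes a GATA repressor and is itself sensitive to nitrogen, stood at 11.58, 11.61 and 11.63 in wild type and at 11.75, 11.87 and 11.79 in overexpression. Its groups did not overlap, and its difference was 0.19 (standard error 0.06, adjusted p = 0.108). GLN3, the activator gene, stood at 10.83 to 10.86 in wild type and 10.91 to 11.00 in overexpression, a difference of 0.10 (adjusted p = 0.323). GLN3 was above the control probes on 1 wild type array and 2 overexpression arrays. It passed with a common median, a setting under which 7.56% of all genes passed. There, 61.2% of all genes had a positive difference, against 46.4% in the reported fit. DAL80 passed with array weights, where 18% of all genes passed. The activator gene GAT1 differed by −0.07 (95% interval −0.22 to 0.09), the repressor gene GZF3 by −0.03 (−0.19 to 0.12) and URE2, whose product retains Gln3, by −0.03 (−0.15 to 0.10). DAL81, an activator of allantoin and GABA genes, was below the control threshold on all 6 arrays. Over the 6 regulators the median difference was 0.01, with DAL81 at its measured value.

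The comparison of repression-sensitive genes with permeases induced by amino acids could be made with 1 gene only. Of 8 listed targets of the Ssy1 sensor, DIP5, the dicarboxylic amino acid permease gene, was the one measured. It stood at 11.13, 11.18 and 11.30 in wild type and at 11.29, 11.27 and 11.39 in overexpression, and the groups overlapped. Its difference of 0.11 (95% interval −0.04 to 0.26, adjusted p = 0.396) stood beside 0.80 (0.63 to 0.97) for GAP1, with intervals that did not overlap. The intervals of UGA4 (0.15 to 0.43) and MEP2 (0.14 to 0.41) overlapped that of DIP5. The difference between these changes was not tested.

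Of the other plasma membrane permeases, CAN1, for arginine, stood at 10.79 to 10.88 in wild type and at 10.91 to 11.02 in overexpression, a difference of 0.11 (adjusted p = 0.325). AGP3, a low-affinity amino acid permease gene, differed by 0.08 (adjusted p = 0.548). Both were above the control probes on 1 wild type array and on all 3 overexpression arrays. AVT6 encodes a transporter that exports aspartate and glutamate from the vacuole. It stood at 12.31, 12.24 and 12.37 in wild type and at 12.26, 12.27 and 13.58 in overexpression. Only overexpression array 3 was high, and its 2 AVT6 spots read 3406.5 and 25382 intensity units. The first spot of AVT6 gave a difference of −0.01 and the second 0.81, so the mean difference of 0.40 (adjusted p = 0.506) rested on 1 spot.

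Counted without the test, 10 of the 28 genes were higher in ACC1 overexpression with groups that did not overlap, where 13.3% of all genes were, and 2 were lower (UGA2 and DAL1), where 11.4% were. Within the array positions, 14 of the 28 were higher at all 3, against 22.4% of all genes, and 3 (UGA2, DAL1 and DAL2) were lower at all 3, against 25.2%. The median log2 difference over the 28 was 0.08.

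Of 30 other genes of nitrogen and amino acid supply, 13 were measured and 1 passed, as higher. Over all genes, 3.47% passed and 2.66% passed as higher. The selection by symbol had left out the gene that passed, so the enzyme counts and median above do not hold it. This was DUR12, the urea amidolyase gene, whose product splits the urea that DUR3 brings in. It stood at 11.08, 11.13 and 11.24 in wild type and at 11.42, 11.47 and 11.56 in overexpression, a rise of 0.33 (standard error 0.06, adjusted p = 0.0412), or 0.77 after normexp with an offset of 50. It was above the control probes on 2 wild type arrays, and its call was lost without wild type replicate 1 or 2 and without any single overexpression array (adjusted p from 0.0576 to 0.185).

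After DUR12, the smallest p-values in this list belonged to GDH1 and GDH3, which encode the paired glutamate dehydrogenases that fix ammonium into glutamate. GDH1 stood at 12.12, 12.45 and 12.71 in wild type and at 12.84, 12.96 and 12.95 in overexpression, a difference of 0.49 (adjusted p = 0.0784). GDH3 stood at 13.40, 13.71 and 14.02 in wild type and at 14.10, 14.25 and 14.19 in overexpression, a difference of 0.47 (adjusted p = 0.0994). For both genes the groups did not overlap, and wild type array 3 came closest to the overexpression arrays. With the array position as a block both passed (adjusted p = 0.00478 and 0.00878), as they did without wild type replicate 3 (0.00575 and 0.00493). Leaving out wild type replicate 1, the differences were 0.34 for GDH1 and 0.30 for GDH3 (adjusted p = 0.0727 and 0.155). The same for wild type replicate 2 gave adjusted p of 0.213 and 0.284, and leaving out an overexpression array gave 0.147 to 0.310 over GDH1 and GDH3. The GDH1 and GDH3 transcripts are similar, and their probes shared no run longer than 5 bases. Each probe was compared with the other probe and not with the other transcript, so binding to both transcripts was not tested. GDH2, which degrades glutamate, differed by −0.02 (95% interval −0.15 to 0.10), and the glutamine synthetase gene GLN1 by −0.01 (−0.19 to 0.16). NPR1, the gene of a kinase that controls several permeases, differed by 0.18 with no overlap of the groups and did not pass (adjusted p = 0.129).

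**Figure D4:**
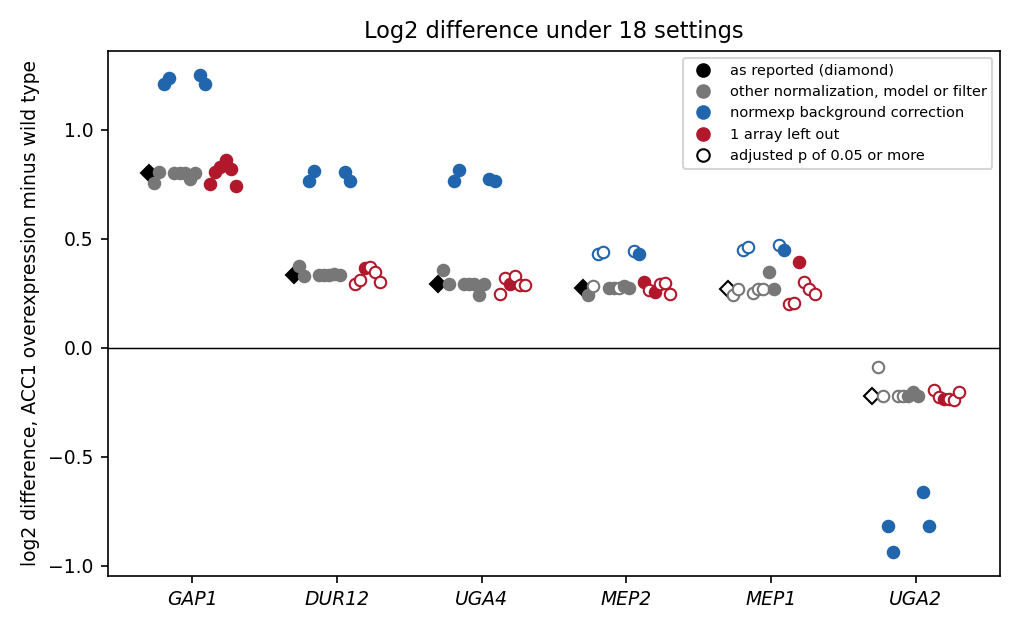
Log2 difference (ACC1 overexpression minus wild type) of 6 genes under 18 settings, with filled symbols where the adjusted p was below 0.05. GAP1 passed under every setting shown, UGA4 under 13, MEP2 under 9, UGA2 under 8 and MEP1 under 4.

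How many of the 28 genes passed moved with the arrays and the model, as did the share over all genes. Without wild type replicate 2 GAP1 alone passed (0.511% of all genes), and so it did without overexpression replicates 1, 2 and 3 (0.511%, 0.409% and 0.715%). Without wild type replicate 1, GAP1 and MEP2 passed (3.27% of all genes), and without wild type replicate 3, 5 of the 28 (12.6%). With the array position, which the replicate number shares, as a block, 5 passed (12.4%): GAP1, UGA4, MEP2 and MEP1 as higher and UGA2 as lower. The count was 5 with a common median (7.56%), 6 with array weights (18%), 3 after normexp with an offset of 50 (3.88%), 8 after normexp with the block (14.5%) and 1 at an adjusted p of 0.01 (0.511%).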

How the data were processed

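Biotin-labelled RNA, amplified from total RNA extracted with TRIzol per the labels' protocols, was measured on 6 arrays, 3 per group, grouped by sample title. Per the file headers, the deposited intensity is a spot's median foreground, and the 6 files hold no background values. The scanner software and its background handling are not stated in the sources used here. The deposited value table was not used, because its rows could not be tied to genes.

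Intensities were taken to log2, quantile normalized over the yeast spots, and averaged over the spots of a probe. Groups were compared with limma 3.58.1 in R 4.3.3 (lmFit, eBayes), two-sided, with Benjamini-Hochberg adjustment over 979 genes and a threshold of 0.05. The fit was tested on simulated data, from which no error rate is given here. All 979 systematic names matched the R64 gene table, used for names and gene order only. The members, role lists and tests were chosen with earlier results of these data known, so no list was tested as a set. All 28 members were named; of 13 further pathway genes, the one past the threshold and the 3 with the next lowest adjusted p were named, and GDH2 and GLN1 were added after their values were seen.

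As listed, the probes are complementary to the coding strand: in the frame given by the probe names, the reverse complements of 979 probes held 0 stop codons, against 475 and 579 probes with one in the other frames. The labels' protocol yields antisense RNA, so which strand was printed was not settled.

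Alternatives covered background correction, normalization, spot averaging, a filter on dim genes (above the control probes on at least 3 arrays), variance moderation, array weights, the replicate block, the threshold and leaving out each array.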

Additional observations from a re-analysis of the deposited data

How the results depend on the processing

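GAP1 passed under all 18 settings of the fit that were run, with a log2 difference from 0.74 to 1.25. Over the 28 genes, 439 values under an alternative kept their side of the threshold, 14 lost a call, 18 gained one and 0 reversed. A reversal was counted only where the gene was called in the reported fit or in the alternative. Among genes called in neither, some changed sign between settings, such as AVT6 (−0.04 to 0.62) and CAR2 (−0.084 to 0.073). The count of 34 genes past the threshold over all genes moved to 74 with a common median, 176 with array weights, 121 with the replicate block, 5 at an adjusted p of 0.01 and 142 after normexp with the block, and lay between 4 and 123 when 1 array was omitted. The count of 3 of the 28 moved to 5, 6, 5, 1 and 8 under the same settings in that order, and lay between 1 and 5 when 1 array was omitted. The cause was not tested. Calls over all genes were 26 higher and 8 lower, 62 and 12 with a common median, 94 and 82 with array weights, 70 and 51 with the replicate block, 79 and 63 after normexp with the block, and 67 and 56 without wild type replicate 3. The permease median of 0.20 moved to 0.39 after normexp with an offset of 50 (also with the block and with control probes), 0.42 with no offset and 0.27 with the filter on dim genes, which left DAL5 out, and lay between 0.15 and 0.23 when 1 array was omitted. The median of all 18 repression-sensitive genes, 0.07, moved to 0.13 with a common median, 0.19 after normexp with an offset of 50 with or without the block, 0.20 with no offset and 0.17 with control probes, and lay between 0.041 and 0.072 when 1 array was omitted. The enzyme median, −0.01, moved to 0.081 with a common median. The regulator median, 0.01, moved to 0.13 with a common median, 0.076 after normexp with an offset of 50 with or without the block, and 0.10 with no offset. The median of the 28, 0.08, moved to 0.17 with a common median, 0.22 after normexp with an offset of 50 with or without the block, 0.25 with no offset and 0.21 with control probes, and lay between 0.051 and 0.085 when 1 array was omitted. Across genes, the deviations of arrays sharing a number correlated at 0.467, −0.021 and 0.385. Pairing by number was therefore not taken as shown, and the replicate block stayed an alternative. Normexp with control probes and normexp with the block were chosen after seeing the data. Signal over background limits the dim genes: 17 of the 28 were not above the control probes on every array.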
